A study of Mus musculus with 6 samples.

Results

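The genes described here are 30 mouse genes that encode enzymes of mitochondrial fatty acid oxidation and acyl-CoA thioesterases, out of 37620 gene identifiers counted in each library. They were chosen by gene symbol, and all 30 were found by Ensembl identifier. By role they comprise 5 genes of the carnitine shuttle and its control, 6 acyl-CoA dehydrogenases, 7 enzymes of the later steps, 3 genes of electron transfer and 9 thioesterases.

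Long-chain fatty acids enter mitochondria as acylcarnitines, made by carnitine palmitoyltransferase 1 on the outer membrane and turned back into acyl-CoA by carnitine palmitoyltransferase 2 inside. Each round of oxidation then runs through an acyl-CoA dehydrogenase, a hydratase, a hydroxyacyl-CoA dehydrogenase and a thiolase, and the dehydrogenase passes its electrons through the electron transfer flavoprotein to ubiquinone. Thioesterases split acyl-CoA into free fatty acid and CoA. Brown fat burns fatty acids to make heat, and free fatty acids also activate its uncoupling protein.

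The study compared mature brown fat of wild type mice with that of mice labelled PHOSPHO1 knockout. Phospho1 encodes a phosphatase that acts on phosphocholine and phosphoethanolamine. Both groups had a C57BL/6 background and were 6 weeks old. There were 3 libraries per group, every one from a pool of 3 mice. Minced fat was treated with collagenase, the fat cells that rose to the top in a spin were kept, and mRNA libraries were made from their RNA. The sources used here do not give how the allele was made, where in the body it acts or the sex of the mice. The p-values measure the spread between these pools. In bulk RNA of this kind, fewer cells of a type and less RNA per cell cannot be told apart.

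The libraries held from 10576800 to 14239307 counts, of which 39.1% to 56.5% came from the mitochondrial genome. The 30 genes took 2.41% to 2.79% of the counts of nuclear genes. Phospho1 itself had 13, 5 and 5 counts in wild type and 18, 15 and 17 in the knockout-labelled libraries, so its counts were not lower under the knockout label. Of its exonic bases, 89.6% are shared with Zfp652, a gene on its own strand, and the counts check the labels little. Every direction given here is therefore that of the libraries labelled knockout. The summed level of 11 brown adipocyte markers was 21208 to 28971 CPM (counts scaled by TMM to a common library size) in wild type and 24706 to 32909 in the knockout-labelled libraries. Without Fabp4, the most abundant of them, it was 8394 to 11485 and 11670 to 13211 CPM. Among the 11, Cox7a1 was higher (log2 fold change 1.02, edgeR adjusted p = 0.045) and Dio2 lower (-2.08, adjusted p = 0.018). With offsets that remove each library's trend with longest-transcript length and GC content, neither passed (edgeR adjusted p = 0.344 and 0.074). In that fit 1 of all 12068 tested genes passed. Liver markers summed to at most 1.08 CPM, with Ttr at 0 in every library.

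None of the genes passed the test. The libraries of the groups did not overlap for several of them, and for 15.8% (higher) and 19.6% (lower) of all tested genes. Of the 30 genes, 29 had enough counts to be tested. At an adjusted p under 0.05, 0 were higher and 0 lower under the knockout label (edgeR quasi-likelihood test), while 9.16% of all 12068 tested genes passed, 197 higher and 908 lower. That split moved with the scaling, to 29 higher and 1389 lower with total counts alone, 260 and 385 with offsets for GC content, and 81 and 142 with offsets for median transcript length and GC content. At an unadjusted p under 0.05 there were 6 of the 29 (20.7%), against 30.8% of all tested genes. These 6 were Acot7, Acaa2 and Etfb with higher values and Cpt1a, Acad11 and Etfdh with lower values under the knockout label. DESeq2 called 2 of the 29 higher, Acot7 and Acaa2, and 0 lower. Over the 21242 genes it fitted, DESeq2 called 493 higher and 1349 lower. By limma-voom 0 of the 29 passed, beside 150 higher and 742 lower of all 12068 tested genes.

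The estimates leaned neither way by much. The log2 fold changes ran from -0.95 for Cpt1a to 0.82 for Acot7, with 17 above 0, 12 below 0 and a median of 0.10, beside a median of 0.03 over all tested genes. All 3 knockout-labelled libraries lay above all 3 wild type libraries for 6 of the 29 genes (20.7%, against 15.8% of all tested genes), namely Cpt1b, Hadh, Decr1, Acaa2, Etfb and Acot7. They lay below for 2 (6.9%, against 19.6%), Acad11 and Etfdh. Scaling by total counts alone moved the median of all genes to -0.23 and that of the 29 to -0.15. The count of 0 depended on wild type 2: without that library, Acot7, Acaa2 and Etfb passed as higher and Cpt1a as lower. Calls rose over the whole series in that fit, where 688 of 12323 tested genes passed as higher and 1383 as lower. Without any other single library none of the 29 passed. Over all genes those fits gave from 0 calls (without wild type 1) to 1292 (without knockout 1).

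**Figure D1:**
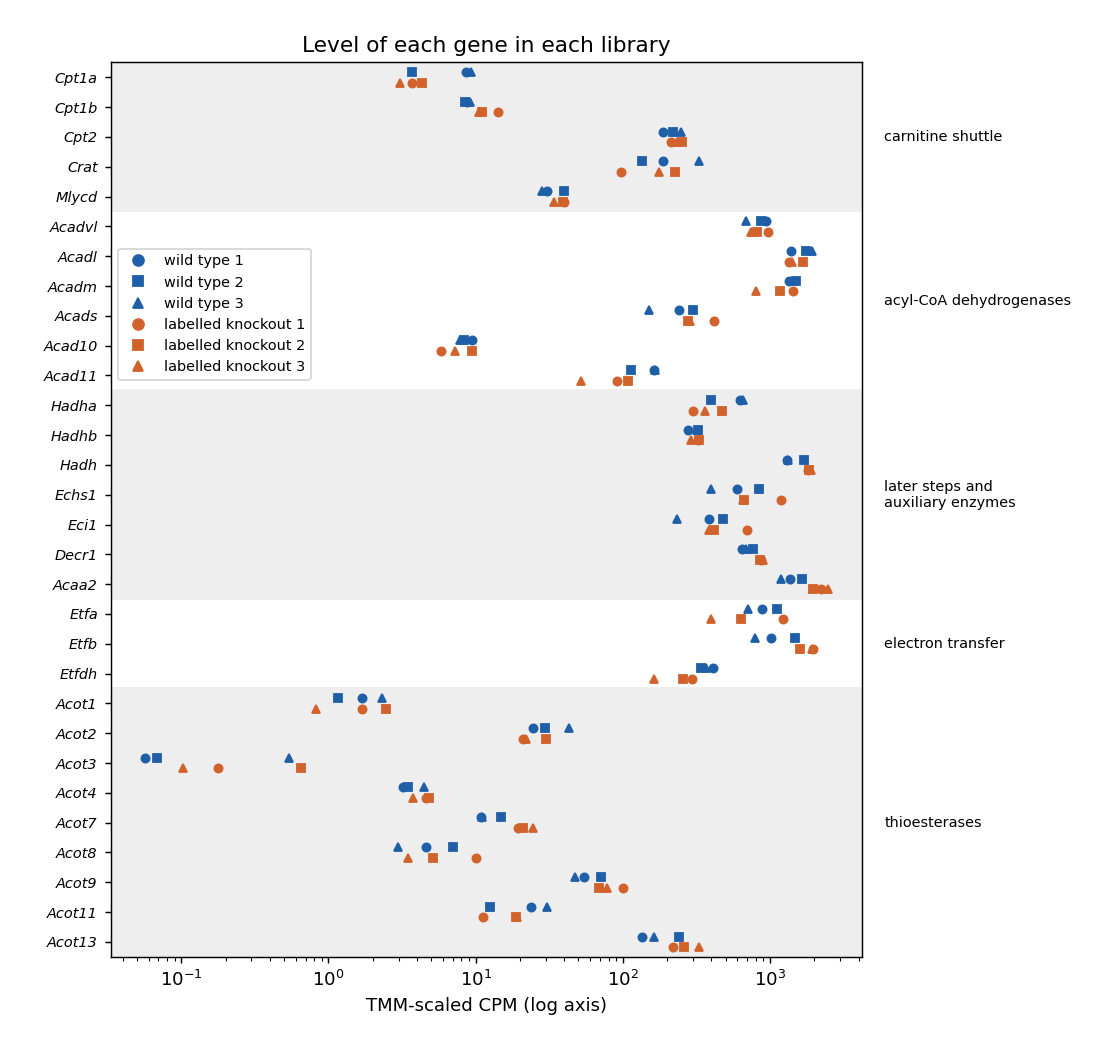
Level of each of the 30 genes in each library as TMM-scaled CPM (log axis), with wild type in blue, knockout-labelled libraries in orange and the marker shape giving the replicate number. The genes span from under 1 CPM (Acot3) to over 2000 CPM (Acaa2 in knockout 1 and 3). The groups separate in 8 of the 29 tested genes, 6 higher (20.7%, against 15.8% of all tested genes) and 2 lower (6.9%, against 19.6%).

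Levels between genes were compared as CPM per kilobase of the longest annotated transcript. In wild type the highest were Etfb at 1233 ± 398, Acaa2 at 924 ± 156, Acadl at 882 ± 147, Acadm at 697 ± 40.7 and Etfa at 648 ± 144 CPM per kilobase (SD, n = 3). Within these 5, each gene's range of mean ± SD overlapped that of the next in order. A gap followed, then Hadh at 386 ± 59.8, Acadvl at 384 ± 61.1, Eci1 at 323 ± 110, Acot13 at 250 ± 77.0 and Decr1 at 236 ± 21 CPM per kilobase, again with overlapping neighbours. Acot13 was the only thioesterase among these 10 genes. At the low end stood Cpt1a at 1.67 ± 0.713, Acot1 at 0.661 ± 0.225, Acot4 at 0.601 ± 0.108 and Acot3 at 0.0644 ± 0.0801 CPM per kilobase. The order depended on the transcript chosen. By the length of the APPRIS principal transcript Hadh was at 809 and Echs1 at 393 instead of 150 CPM per kilobase. By median transcript length Acadm ranked 1 instead of 4, Hadha 8 instead of 12 and Acot13 11 instead of 9. The gap after Etfa closed by both lengths. By principal length Etfa was at 648 ± 144 and the next gene, Echs1, at 393 ± 142 CPM per kilobase. By median length Etfa was at 1283 ± 285 and the next gene, Acadvl, at 1083 ± 172 CPM per kilobase. Of the 10 highest genes, 9 were shared with the order by principal or by median transcript length.

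In the carnitine shuttle, the 2 isoforms of the entry enzyme had estimates in opposite directions, and the libraries of the groups overlapped for each of the other 3 genes. Cpt1a (ENSMUSG00000024900), the liver-type isoform, was at 8.63, 3.69 and 9.33 CPM in wild type and 3.71, 4.35 and 3.06 CPM in the knockout-labelled libraries. Wild type 2 lay among the knockout-labelled libraries, so the groups overlapped. The log2 fold change was -0.95 (SE 0.37, 95% interval -1.76 to -0.14, edgeR adjusted p = 0.112). Without wild type 2 it was -1.27 and passed the threshold (adjusted p = 0.028). The counts behind these values were 30 to 153 per library.

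Cpt1b (ENSMUSG00000078937), the muscle-type isoform, was at 8.80, 8.53 and 9.15 CPM in wild type and 14.3, 11.1 and 10.5 CPM in the knockout-labelled libraries. All of the latter were above all of the former, by 0.44 on the log2 scale (SE 0.25, edgeR adjusted p = 0.255). By the GRCm38 gene models, Cpt1b shares 81.4% of its exonic bases with Gm44502, a read-through gene on the same strand. Gm44502 is not among the gene identifiers counted here. The sources used here do not give how reads in such shared stretches were counted, and the level of Cpt1b is uncertain for that reason. Skeletal muscle also expresses Cpt1b, and 12 muscle markers summed to 1330 CPM in wild type 3 but to between 44.3 and 128 CPM in the other 5 libraries. Cpt1b in wild type 3 was 9.15 CPM, close to the other wild type libraries.

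Cpt2, the inner-membrane partner, was far more abundant per length than either entry enzyme, at 92 ± 12.6 CPM per kilobase in wild type against 3.05 ± 0.108 for Cpt1b and 1.67 ± 0.713 for Cpt1a. Its levels were 188, 219 and 248 CPM in wild type and 213, 254 and 235 CPM under the knockout label, a log2 fold change of 0.10 (95% interval -0.38 to 0.58). Crat, which moves short acyl groups between carnitine and CoA, was at 187, 136 and 330 CPM in wild type and 97.2, 226 and 176 CPM in the knockout-labelled libraries. Its highest value was in wild type 3, the library with the muscle markers, and without that library its log2 fold change went from -0.39 to 0.02. Whether muscle RNA plays a part in the value of Crat there was not tested. Mlycd, which breaks down malonyl-CoA, the inhibitor of the entry step, ranged from 28.4 to 39.6 CPM in wild type and from 34.1 to 40.1 CPM under the knockout label (log2 fold change 0.20, edgeR adjusted p = 0.559).

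For the acyl-CoA dehydrogenases of the main cycle, which differ in the chain length they take, the libraries of the groups overlapped. For Acad11 the knockout-labelled libraries were all lower, as for 19.6% of all tested genes, and Acad11 did not pass the threshold. Acadvl, for very long chains, was at 941, 872 and 685 CPM in wild type and 972, 811 and 742 CPM under the knockout label, a log2 fold change of 0.02 (95% interval -0.50 to 0.53). Acadl, for long chains, was at 1383, 1755 and 1934 CPM against 1339, 1677 and 1404 CPM, a log2 fold change of -0.20 (-0.72 to 0.32). On the fold scale the interval of Acadvl ran from 0.708 to 1.44 and that of Acadl from 0.607 to 1.25, and the libraries of the groups overlapped in both genes. For Acadvl, 42.9% of the exonic bases lie opposite exons of Dvl2, which itself had 367 counts over all libraries.

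Acadm, the medium-chain dehydrogenase, was at 1342, 1508 and 1429 CPM in wild type and 1442, 1171 and 806 CPM in the knockout-labelled libraries. The wild type values lay close together, and the knockout-labelled ones ran from among them down to 806 CPM in knockout 3, a difference of -0.32 on the log2 scale (SE 0.26, edgeR adjusted p = 0.399). Acads, for short chains, was at 241, 300 and 151 CPM against 415, 276 and 287 CPM, a difference of 0.50 on the log2 scale (SE 0.29, adjusted p = 0.253), and only knockout 1 stood above every wild type library. Acad11 (ENSMUSG00000090150), a relative with an added kinase-like domain, was at 164, 113 and 165 CPM in wild type and 91.2, 109 and 52.2 CPM under the knockout label. The groups did not overlap, though wild type 2 and knockout 2 were only a few CPM apart. The log2 fold change was -0.81 (SE 0.29, 95% interval -1.45 to -0.18, edgeR adjusted p = 0.091). Acad10, the other relative with that domain, was low, at 5.84 to 9.51 CPM over the 6 libraries, with a log2 fold change of -0.18.

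Among the later enzymes 6 of 7 estimates were above 0, with Hadha the exception. Hadha and Hadhb encode the alpha and beta subunits of the mitochondrial trifunctional protein, which carries out the hydratase, hydroxyacyl dehydrogenase and thiolase steps for long chains. The genes start back to back, and the stretch between their start sites is shown because it lies upstream of both. It lies at chr5:30155163-30155247 (RefSeq, GRCm38.p6, plus strand, the strand of Hadhb, ending 6 bases before its start site), with no capitals because none of the motifs searched occurs in it.
Hadhb: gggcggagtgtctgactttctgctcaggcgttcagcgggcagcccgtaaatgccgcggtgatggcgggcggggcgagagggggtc
The stretch has 85 bases, of which 69.4% are G or C.

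The partners differed in how their levels varied over the libraries. Hadha was at 630, 396 and 653 CPM in wild type and 299, 470 and 361 CPM under the knockout label, a difference of -0.57 on the log2 scale (SE 0.27, edgeR adjusted p = 0.175). Wild type 1 and 3 were above the rest, and wild type 2 lay within the range of the knockout-labelled libraries. Hadhb was nearly level over all 6 libraries, at 276, 322 and 319 CPM in wild type and 323, 327 and 291 CPM under the knockout label, with a log2 fold change of 0.04 (95% interval -0.43 to 0.50).

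Hadh, the hydroxyacyl-CoA dehydrogenase for shorter chains, was at 1301, 1705 and 1334 CPM in wild type and 1801, 1856 and 1906 CPM under the knockout label (log2 fold change 0.36, SE 0.23, edgeR adjusted p = 0.301). Decr1, the reductase needed for unsaturated chains, was at 642, 766 and 688 CPM against 873, 862 and 894 CPM (log2 fold change 0.33, SE 0.22, adjusted p = 0.314). In both genes the knockout-labelled libraries lay above all of wild type and close to each other. Acaa2 (ENSMUSG00000036880), a thiolase for the last step of a round, was at 1371, 1652 and 1181 CPM in wild type and 2240, 1947 and 2470 CPM under the knockout label. The groups were again apart, with means of 1401 ± 237 and 2219 ± 262 CPM (SD, n = 3). The log2 fold change was 0.66 (SE 0.24, 95% interval 0.14 to 1.19), with adjusted p = 0.095 by edgeR and 0.049 by DESeq2. Without wild type 2 it was 0.80 (edgeR adjusted p = 0.047).

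Echs1, the short-chain enoyl-CoA hydratase, was at 598, 839 and 398 CPM in wild type and 1182, 662 and 653 CPM under the knockout label. Eci1, the isomerase that shifts the double bond of unsaturated chains, was at 387, 481 and 233 CPM against 695, 415 and 385 CPM. Both genes had their highest value in knockout 1 and their lowest in wild type 3, and the remaining 4 libraries overlapped. Both had a difference of 0.44 on the log2 scale (SE 0.32, edgeR adjusted p = 0.359 for Echs1 and 0.350 for Eci1), and without knockout 1 it was 0.11 for Echs1 and 0.13 for Eci1.

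The 3 electron transfer genes had estimates on both sides of 0: Etfb was higher and Etfdh lower in every knockout-labelled library, and Etfa varied widely among those libraries. Etfb (ENSMUSG00000004610), the beta subunit of the electron transfer flavoprotein, was at 1017, 1491 and 795 CPM in wild type and 1950, 1596 and 1922 CPM under the knockout label. All knockout-labelled libraries were above all wild type libraries, with wild type 2 the nearest, and the log2 fold change was 0.73 (SE 0.27, 95% interval 0.13 to 1.32, edgeR adjusted p = 0.102). Without wild type 2 it was 1.01 (adjusted p = 0.029). In GRCm38, 53.0% of the exonic bases of Etfb are shared with Gm45233 on the same strand, which is not among the gene identifiers counted here. How reads in the shared stretch were counted is not given, so the level of Etfb is uncertain.

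Etfa (ENSMUSG00000032314), the alpha subunit, was at 885, 1110 and 710 CPM in wild type and spread from 1217 in knockout 1 to 631 in knockout 2 and 395 CPM in knockout 3. The groups overlapped, since knockout 1 had the highest and knockout 3 the lowest value of all 6 libraries (log2 fold change -0.27, SE 0.36, edgeR adjusted p = 0.623). Without knockout 3 the log2 fold change was 0.02. Etfdh (ENSMUSG00000027809), the oxidoreductase that takes the electrons to ubiquinone, was at 412, 342 and 367 CPM in wild type and 297, 257 and 164 CPM under the knockout label. The groups did not overlap, and the log2 fold change was -0.64 (SE 0.26, 95% interval -1.21 to -0.08, edgeR adjusted p = 0.120).

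The promoters of Etfa and Etfb are shown because these genes encode the subunits of 1 protein and had estimates of opposite sign. Each is the 250 bases just before the start site (RefSeq, GRCm38.p6), at chr9:55512244-55512493 on the minus strand for Etfa and chr7:43443822-43444071 on the plus strand for Etfb. Capitals mark a match on the opposite strand to a DR1 element, a pair of AGGTCA repeats 1 base apart, which the PPAR family of lipid-sensing receptors is known to bind; the match has 2 mismatches.
Etfa: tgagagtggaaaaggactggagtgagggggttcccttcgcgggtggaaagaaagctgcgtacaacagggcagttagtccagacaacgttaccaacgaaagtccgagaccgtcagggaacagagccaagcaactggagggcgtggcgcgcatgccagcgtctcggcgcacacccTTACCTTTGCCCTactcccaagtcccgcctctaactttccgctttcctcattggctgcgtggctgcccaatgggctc
Etfb: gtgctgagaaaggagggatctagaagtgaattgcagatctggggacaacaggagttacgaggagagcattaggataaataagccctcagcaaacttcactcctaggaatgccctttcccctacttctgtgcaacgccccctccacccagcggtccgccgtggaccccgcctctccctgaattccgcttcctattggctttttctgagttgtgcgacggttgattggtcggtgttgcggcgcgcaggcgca
The Etfb stretch holds no match to the motifs searched, and a match is a description of letters, not a measured binding site.

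Of the thioesterases, Acot7 had the smallest p-value of all 29 tested genes. Acot7 (ENSMUSG00000028937), a cytosolic long-chain acyl-CoA thioesterase, was at 10.8, 14.9 and 11 CPM in wild type and 19.4, 21.1 and 24.5 CPM under the knockout label. The groups did not overlap, with means of 12.3 ± 2.32 and 21.7 ± 2.61 CPM (SD, n = 3). The log2 fold change was 0.82 (SE 0.25, 95% interval 0.27 to 1.36), with adjusted p = 0.059 by edgeR, 0.060 by limma-voom and 0.033 by DESeq2. Without wild type 2 it was 0.99 (edgeR adjusted p = 0.035). No stretch of 50 bases of its longest transcript occurs in another annotated gene.

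Acot13, a small mitochondrial thioesterase and the most abundant of the family per length, was at 135, 242 and 164 CPM in wild type and 219, 262 and 330 CPM in the knockout-labelled libraries. Wild type 2 exceeded knockout 1, and the log2 fold change was 0.58 (SE 0.27, edgeR adjusted p = 0.169). Acot9, a mitochondrial member, was at 54.6, 71.6 and 47.2 CPM against 101, 68.6 and 78.5 CPM, a difference of 0.52 on the log2 scale (SE 0.25, adjusted p = 0.183). For Acot9, 20.2% of the 50-base stretches of its longest transcript also occur in Acot10, so reads could be split between these genes. Acot2, the mitochondrial enzyme for long chains, was at 24.6, 29.8 and 43.0 CPM against 21.1, 30.3 and 22.0 CPM, a difference of -0.41 on the log2 scale (SE 0.27, adjusted p = 0.321). Its near copy Acot1, the cytosolic enzyme, was much lower, at 0.817 to 2.46 CPM over the libraries, and 24.5% of the 50-base stretches of Acot2 occur in Acot1.

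The peroxisomal members were low. Acot4 ranged from 3.21 to 4.84 CPM with a log2 fold change of 0.25, which was 0.85 and 0.92 with GC content and length offsets by its longest and principal transcript (edgeR adjusted p = 0.106 and 0.094). Acot8 ranged from 2.96 to 10.1 CPM with an estimate of 0.36 (95% interval -0.57 to 1.29). Of the exonic bases of Acot8, 12.3% lie opposite exons of Snx21, which had 1621 counts over all libraries. Acot3 held 1, 1 and 6 counts in wild type and 2, 8 and 1 under the knockout label and was too low to test. Acot11, a thioesterase known from brown fat, was at 23.9, 12.6 and 30.7 CPM in wild type and 11.2, 18.9 and 19.0 CPM under the knockout label, with overlapping groups and a difference of -0.45 on the log2 scale (SE 0.34, edgeR adjusted p = 0.372).

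**Figure D2:**
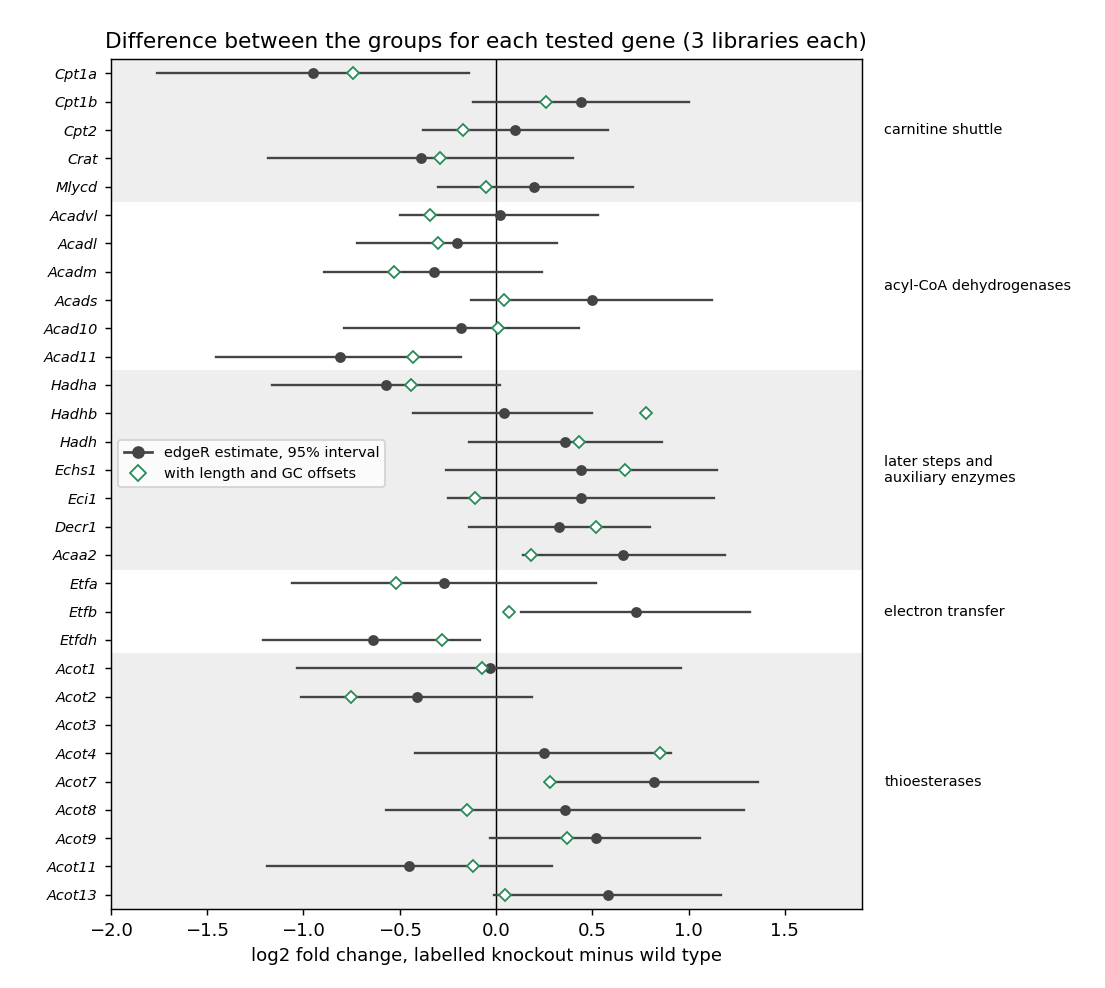
Log2 fold change of each tested gene, knockout-labelled minus wild type (3 libraries each), with dots for the edgeR estimate, bars for its 95% interval and open diamonds for the estimate after offsets for length and GC content. The intervals of Cpt1a, Acad11 and Etfdh lie below 0 and those of Acaa2, Etfb and Acot7 above 0, and the diamonds of Acaa2, Etfb and Acot7 sit closer to 0, at 0.18, 0.07 and 0.28; Acot3 was not tested.

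Ratios of counts within a library remove its depth and compare partners directly. They do not remove a library's trend with transcript length or GC content. The ratio of Etfa to Etfb was 0.870, 0.745 and 0.893 in wild type and 0.624, 0.395 and 0.206 under the knockout label, with no overlap and a log2 difference of -1.17. The 3 knockout-labelled values differed among themselves more than wild type did, and without knockout 3 the log2 difference was -0.75. The ratio of Cpt1a to Cpt1b was 0.981, 0.432 and 1.02 in wild type and 0.259, 0.393 and 0.291 under the knockout label, again without overlap, a log2 difference of -1.29. Permuting the labels (exact, two-sided) gave p = 0.1 for each of these ratios, which is the lowest value that 3 against 3 libraries allow, and 0.4 after adjustment over the 8 ratios compared, so the design could not pass the threshold. The uncertain counts of Etfb and Cpt1b enter these ratios. The first gene also has the longer transcript in each (Etfa 1392 and Etfb 893 bases, Cpt1a 4317 and Cpt1b 2895 bases). With longest-transcript and GC offsets the log2 fold changes were -0.52 for Etfa and 0.07 for Etfb, against -0.27 and 0.73 without. Those of Cpt1a and Cpt1b were -0.74 and 0.26, against -0.95 and 0.44. The ratios themselves were not tested with offsets.

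The ratio of Hadha to Hadhb was 2.28, 1.23 and 2.04 in wild type and 0.925, 1.44 and 1.24 under the knockout label (log2 difference -0.60, exact permutation p = 0.3). Wild type 2 lay among the knockout-labelled libraries here, as it did in the levels of Cpt1a. The other 5 ratios overlapped between the groups. Those of Etfa to Etfdh, Acadm to Acadl and Acadvl to Acadm had log2 differences of 0.28, -0.17 and 0.38. Those of Cpt1b to Cpt2 and of Acot1 to Acot2 had differences of 0.32 and 0.24.

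**Figure D3:**
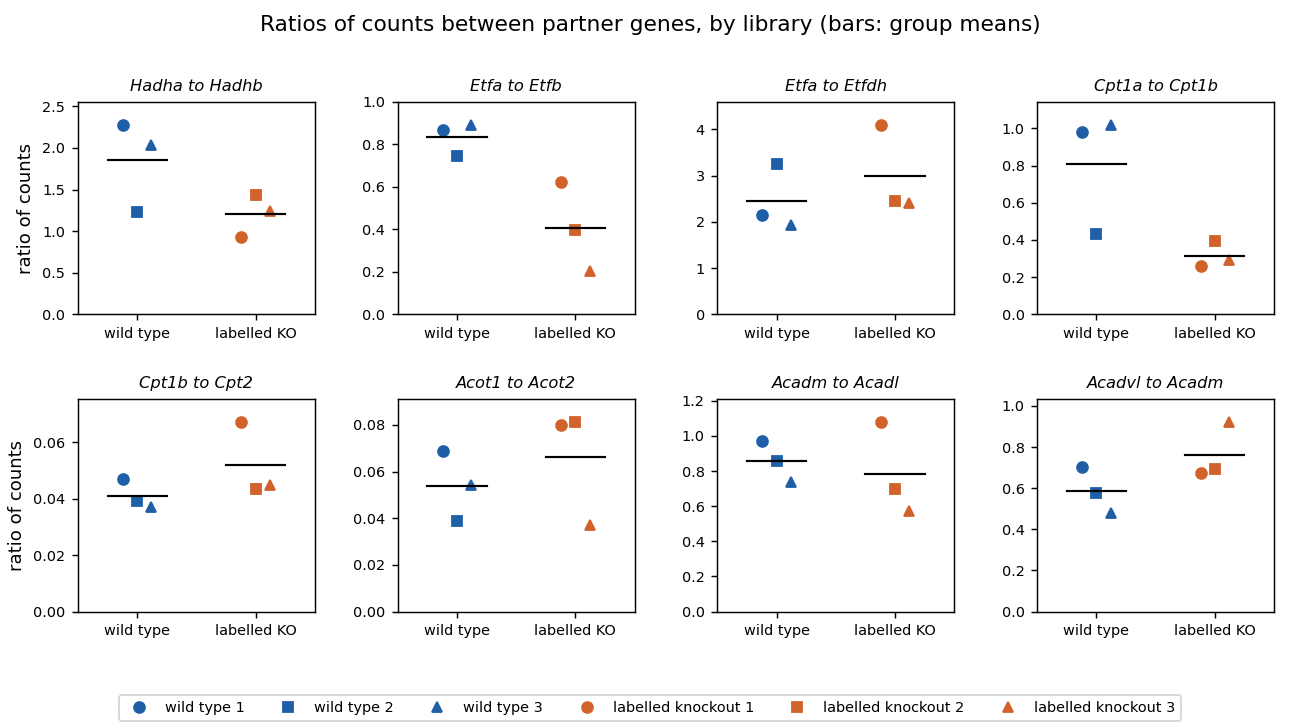
Ratios of counts between 8 pairs of partner genes in each library (each vertical axis starts at 0, points are libraries and horizontal bars are group means). Only the ratios of Etfa to Etfb and Cpt1a to Cpt1b have all 3 knockout-labelled libraries below all 3 wild type libraries.

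The estimates ran lower with longer transcripts. Across the 29 tested genes, Spearman's rho between log2 fold change and the length of the longest transcript was -0.55, against -0.58 across 11863 tested genes with a length; genes share the same libraries and are not independent replicates. With the principal transcript it was -0.69 for the 29 and -0.59 for all, and with the median transcript -0.10 and -0.36. With the GC content of the longest transcript rho was 0.34 for the 29 and 0.39 for all. Etfb, Acaa2 and Acot7, with transcripts of 893, 1516 and 1505 bases, had the highest estimates. Etfdh, Acad11 and Cpt1a, with 3740, 3463 and 4317 bases, had the lowest. Read against the quartiles of all tested genes at the same length, Etfb and Acaa2 lay within them and Acot7 above, while Cpt1a, Acad11 and Etfdh lay below. Of the shorter transcripts Etfa (1392 bases, estimate -0.27), Acot2, Acadm and Acadl also lay below the quartiles. Of the longer ones Echs1 (4088 bases, 0.44), Hadh (3751 bases, 0.36) and Acot4 (6203 bases, 0.25) lay above them, as did Cpt1b. In all, 17 of the 29 lay within the quartiles.

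With offsets that remove each library's trend with length and GC content, the median of the 29 was -0.07, beside 0.03 over all tested genes. No gene of the 29 passed, and of all 12068 tested genes 1 did. Acot7 went to 0.28 (edgeR adjusted p = 0.419), Acaa2 to 0.18 (adjusted p = 0.550) and Etfb to 0.07 (adjusted p = 0.855). Acad11 went to -0.43 (adjusted p = 0.318), Etfdh to -0.28 (adjusted p = 0.403) and Cpt1a to -0.74 (adjusted p = 0.195). In this fit all 6 kept their sign and were nearer to 0. With offsets by the median transcript and GC content Cpt1a was farther from 0, at -1.16 (adjusted p = 0.093). With the principal transcript in place of the longest, Etfdh was at -0.62 (adjusted p = 0.138); its principal transcript has 2377 bases. Hadhb went from 0.04 to 0.78 by its longest transcript of 4388 bases and GC content, but to 0.07 by its principal transcript of 2048 bases. With GC content alone Hadhb was at 0.68, and with longest-transcript length alone at 0.37. Acad11 and Etfdh were at -0.34 and -0.28 with GC content alone and -0.68 and -0.45 with length alone. Acaa2, Etfb and Cpt1a moved more with length alone (0.26, 0.22 and -0.60) than with GC content alone (0.53, 0.46 and -1.01).

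**Figure D4:**
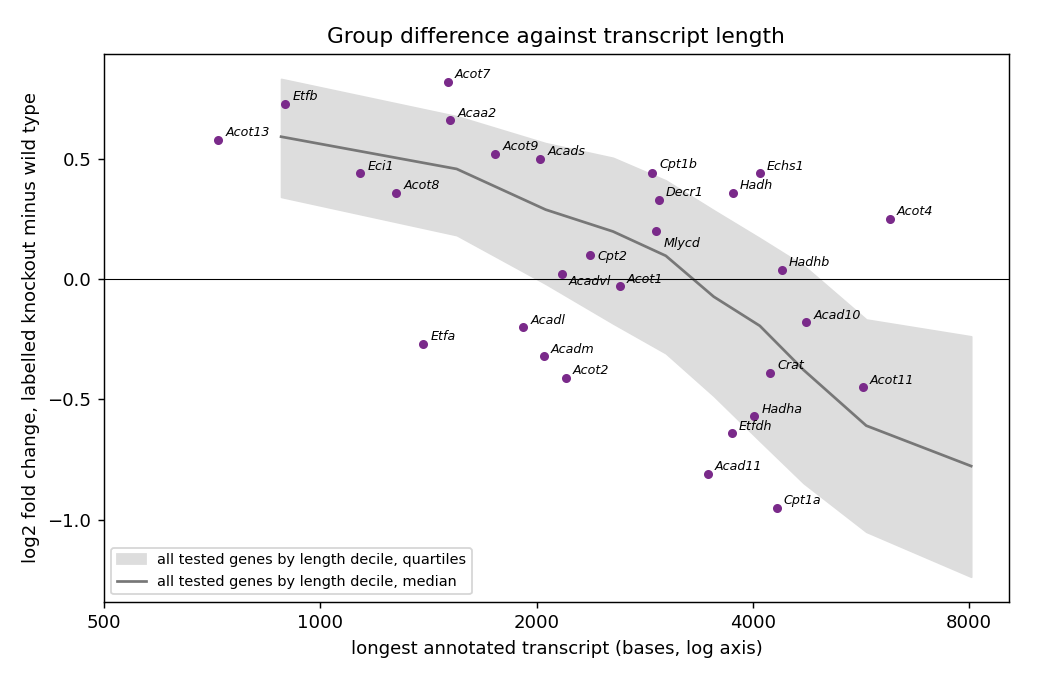
Log2 fold change (knockout-labelled minus wild type) of the 29 tested genes against the length of the longest annotated transcript (log axis), over the median line and quartile band of all tested genes by length decile. Of the 29 genes 17 lie within the band, 7 below it (Cpt1a, Acadl, Acadm, Acad11, Etfa, Etfdh and Acot2) and 5 above it (Cpt1b, Hadh, Echs1, Acot4 and Acot7).

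The libraries themselves differed in this trend. The slope of each gene's log2 ratio to its mean over the libraries on log2 length was 0.306, -0.025 and 0.300 in wild type 1, 2 and 3 and -0.238, -0.093 and -0.249 in knockout 1, 2 and 3. Wild type 2 thus stood nearer to the knockout-labelled libraries than the other wild type libraries did, in this slope and in the levels of Cpt1a and Hadha. Still, every knockout-labelled slope lay below every wild type slope, so the trend and the label cannot be told apart here. Offsets for the trend can also remove a group difference that runs with length. Among the 30 genes, knockout 1 held the highest value of 10 and wild type 3 the highest of 7 and the lowest of 9. Erythroid markers summed to 801, 1378 and 366 CPM in wild type and 2829, 1210 and 3505 CPM under the knockout label, and of these 5 genes Hba-a1 and Alas2 passed the test as higher. The 8 macrophage markers summed to 204, 213 and 115 against 459, 234 and 508 CPM, mostly from Lyz2 (edgeR log2 fold change 1.43, adjusted p = 0.040). Without Lyz2 they summed to 45.2, 52.0 and 47.0 against 67.8, 37.2 and 49.7 CPM, and Cd163 was lower (-2.44, adjusted p = 0.048). The 8 endothelial markers summed to 544, 301 and 525 CPM against 308, 413 and 343 CPM. Of them Tek (edgeR log2 fold change -1.21, adjusted p = 0.040) and Flt1 (-1.24, adjusted p = 0.044) passed as lower. Vwf, Emcn and Tie1 had estimates above 0, at 0.54, 0.37 and 0.05. With longest-transcript and GC offsets none of the called genes of these lists passed, in a fit where 1 of all 12068 tested genes did. The edgeR adjusted p of the called genes then ran from 0.079 for Hba-a1 to 0.124 for Flt1. The part of these cell types in the values of the 30 genes was not tested.

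Promoter letters were compared for the 25 genes with an entry in the RefSeq table, beside 32817 promoters of 300 bases, on both strands. A gene was counted once if any of its promoters matched, while the share of all counted each promoter separately. The shares are thus unlike measures, since a gene with several promoters has more places to match. The single repeat AGGTCA occurred in 6 of the 25 (24%), Cpt1a, Acadvl, Acadm, Echs1, Acot3 and Acot4, and in 16.3% of all promoters. A DR1 element with at most 2 mismatches, which can contain that repeat, occurred in Echs1, Etfa and Acot4 (12%) and in 3.86% of all. An exact DR1 and the ERRE, which is that repeat preceded by TCA, occurred in 0 of the 25 and in 0.0396% and 0.424% of all. The core bound by NRF1, CGCA followed by TGCG, occurred in Acadm, Acad10 and Etfdh (12%) and in 1.86% of all. For the single repeat the estimates of the 5 tested genes ran from -0.95 for Cpt1a to 0.44 for Echs1. For the DR1 element they were 0.44 for Echs1, -0.27 for Etfa and 0.25 for Acot4, and for the NRF1 core -0.32 for Acadm, -0.18 for Acad10 and -0.64 for Etfdh.

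Of 52 further genes of the pathway, 45 were tested, and 0 were higher and 4 lower under the knockout label, beside the 9.16% called among all tested genes. Acadsb, the dehydrogenase for short branched chains from isoleucine, fell from 256, 238 and 291 CPM in wild type to 117, 105 and 38.7 CPM (log2 fold change -1.59, SE 0.35, edgeR adjusted p = 0.024). Echdc1, a decarboxylase that clears ethylmalonyl-CoA, fell from 219, 171 and 252 CPM to 98.8, 89.3 and 41.2 CPM (log2 fold change -1.48, SE 0.32, adjusted p = 0.022). Neither pair of groups overlapped. The regulators Esrrg, a nuclear receptor of oxidative genes, and Ppargc1a, the coactivator PGC-1alpha, fell by 1.73 and by 1.07 on the log2 scale (adjusted p = 0.028 and 0.034). Those with the smallest p among the higher estimates were Hsd17b10, Slc25a20 and Ppargc1b, at 0.68, 0.53 and 0.71 (adjusted p = 0.119, 0.139 and 0.174). Slc25a20, the carrier that exchanges acylcarnitine for carnitine between Cpt1 and Cpt2, was at 373, 486 and 387 CPM in wild type and 598, 551 and 646 CPM under the knockout label, without overlap.

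These 4 calls rested on particular libraries and on the treatment of length. None passed without wild type 1 or without knockout 3, and neither did nearly any other gene. Over all tested genes, 0 of 12279 passed without wild type 1 and 2 of 12445 without knockout 3, against 1105 with all 6 libraries. Esrrg and Ppargc1a missed the threshold without wild type 3 (edgeR adjusted p = 0.055 and 0.084). Ppargc1a also missed it without knockout 1 (0.055) or knockout 2 (0.061). Without knockout 2 Acadsb was at an adjusted p of 0.050, just above the threshold. With offsets for the longest transcript and GC content Acadsb was at -0.87, Echdc1 at -1.01, Esrrg at -1.05 and Ppargc1a at -0.17 (edgeR adjusted p = 0.127, 0.066, 0.103 and 0.659). In this fit 1 of all 12068 tested genes passed. With the median transcript instead, Acadsb was at -1.43 and passed (adjusted p = 0.049), while Echdc1 was at -1.14 (0.051). With the principal transcript Echdc1 was at -1.43 (0.062) and Acadsb at -0.80 (0.151). With GC content alone Acadsb passed at -1.19 (0.046), as did Echdc1.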

How the data were processed

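RNA sequencing covered 6 brown fat libraries, 3 wild type and 3 labelled PHOSPHO1 knockout, with groups and replicate numbers from the labels. The authors deposited raw counts per Ensembl gene, 1 file per library and with no normalization. The submitters' processing notes name STAR 2.5.4b and mm9. The sources used here do not give the counting program, its strand setting or the annotation, so overlapping genes cannot be told apart. The members and gene lists were chosen with earlier results of these data known. All 30 genes are named, and of the other pathway genes those past the threshold and, per direction, the 3 of smallest p.

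Symbols, transcript lengths and overlaps came from GENCODE M21 (GRCm38), which matched 32897 of 37620 identifiers; the rest held 0.178% of the counts. Counts were filtered with filterByExpr (minimum count 10, total 15), scaled by TMM and compared with the two-sided robust quasi-likelihood test of edgeR 4.0.16 in R 4.3.3, with Benjamini-Hochberg adjustment over 12068 genes and a threshold of 0.05. CPM are TMM-scaled and use all counts. Ratios were tested by exact permutation of the 6 libraries. Alternatives were DESeq2 1.42.0, limma-voom 3.58.1, other scalings and filters, a replicate block, leave-one-out fits, and offsets from smooth trends with length and GC (mgcv 1.9.3, basis size 6, prior count 2). The fit was tested on simulated data. Depth set the precision: Acot1, Acot3 and Acot4 had at most 59 counts per library.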

Additional observations from a re-analysis of the deposited data

How the results depend on the processing

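The main limits are 3 libraries per group, single libraries that decide calls, and the trend with transcript length. Offsets by the principal transcript, its use for levels per kilobase and the ratios without each library were chosen after seeing the data. Of 609 values of single genes over 21 alternatives, 560 kept their sign and side of the threshold, 43 in 12 genes changed sign without passing the threshold, and 6 passed it: Acaa2 and Acot7 by DESeq2 (2 genes), and Cpt1a, Acaa2, Etfb and Acot7 without wild type 2. The median of the 29 was -0.15 with total counts, -0.07 with longest-transcript and -0.09 with principal-transcript offsets, and 0.02 to 0.26 leaving out single libraries. Of all genes 1105 passed, 1842 with DESeq2, 1 with offsets by longest or principal transcript and GC, 16 by length alone, 645 by GC alone, 223 by median transcript and GC, and 1 at an adjusted p under 0.01. Leaving out single libraries gave 0 to 2071 of all genes and 0 to 4 of the 29. The causes were not tested.

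Sign changes were as follows. With total counts Cpt2 was at -0.15, Acadvl at -0.25, Hadhb at -0.21 and Mlycd at -0.06. With no filter on low counts Acadvl was at -0.05 and Hadhb at -0.01, and with upper-quartile factors Acot1 at 0.01. With longest-transcript and GC offsets Cpt2 was at -0.17, Acadvl at -0.34, Acad10 at 0.01, Eci1 at -0.11, Mlycd at -0.05 and Acot8 at -0.15. With length alone Cpt2 was at -0.06, Acadvl at -0.21, Acad10 at 0.21, Eci1 at -0.04, Acot8 at -0.08 and Acot11 at 0.13. With GC alone Cpt2 was at -0.01, Acadvl at -0.14, Acadl at 0.10, Etfa at 0.01, Mlycd at -0.11 and Acot1 at 0.14. With median-transcript and GC offsets Cpt2 was at -0.16, Acadvl at -0.28 and Acot1 at 0.08. With principal-transcript offsets Cpt2 was at -0.07, Acadvl at -0.25, Eci1 at -0.09, Mlycd at -0.18 and Acot8 at -0.24. Leaving out single libraries, Cpt2 ran from -0.00 to 0.18, Acadvl from -0.13 to 0.11, Hadhb from -0.04 to 0.08, Etfa from -0.81 to 0.02, Crat from -0.68 to 0.02, Acot1 from -0.46 to 0.27 and Acot8 from -0.16 to 0.72.

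The labels do not say whether a replicate number marks a shared litter, batch or day. Deviations of same-numbered libraries from their group means correlated at 0.14, -0.53 and 0.03, and those of differently numbered libraries at -0.42 to 0.54. With 3 libraries per group these values cannot decide whether the numbers mark pairs. With the replicate number as a block, 1199 of all genes and 0 of the 29 passed.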
